A study of Mus musculus with 10 samples.

Results

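The 8 genes that encode the subunits of the chaperonin TRiC (also called CCT) were followed in P19 cells after knockdown of Larp1. The genes were Tcp1, Cct2, Cct3, Cct4, Cct5, Cct6a, Cct7 and Cct8, chosen by name as the complete set of subunits found in most cells, out of 13272 genes with at least 1 kept read. Every one of them was read in every library. They held 11333 of the 2132085 alignments to mRNA that carried a tail estimate of PASS quality, the tag the authors' tail caller gives to reads it could segment in full. P19 is a wild-type mouse embryonal carcinoma line, kept undifferentiated here. The control groups (siCtl) received a pool of scrambled siRNAs and the knockdown groups (siLarp1) 1 siRNA against Larp1, for 24 h, and the 48 h groups were transfected again after the first 24 h. Each treatment had 3 libraries at 24 h, named 19, 21 and 22 in the deposited table, and 2 at 48 h, named 24 and 25. Single native RNA molecules were read on nanopores, so that each read gives 1 molecule with its poly(A) tail. The siCtl and siLarp1 libraries of 24 h came from separate sequencing pools, so that treatment and pool cannot be told apart for them. All 4 libraries of 48 h came from 1 pool. Changes over time cannot be told apart from changes of pool or from the second transfection.

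TRiC is a barrel of stacked rings, in which 8 related subunits hold fixed places, and it folds proteins in its chamber with energy from ATP. Actin and tubulin depend on it, as do many proteins with WD repeats, among them activators of the cell cycle ubiquitin ligase and subunits of the mTOR complexes. The subunits are needed in equal number in a ring, so their mRNAs are a natural set in which to compare levels. Larp1 is an RNA-binding protein that recognises mRNAs beginning with a cytosine and a run of pyrimidines (the 5′-terminal oligopyrimidine or TOP motif, the mark of ribosomal protein mRNAs) and that also contacts poly(A)-binding protein and the poly(A) tail.

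Levels are given as reads per 1000000 kept reads of a library (RPM). The kept reads numbered from 112676 to 423247 per library, and each of the siLarp1 libraries at 24 h was shallower than each siCtl library of that time. A TRiC gene had between 51 and 327 reads in a library, which limits the precision of a single level to a counting error of 14.0% to 5.53%. Such errors cover counting only. The target Larp1 had 76.0, 84.3 and 85.1 RPM in the siCtl libraries at 24 h and 33.4, 44.9 and 19.1 RPM in the siLarp1 libraries. At 48 h it had 169 and 123 RPM in siCtl and 18.5 and 24.9 RPM in siLarp1 libraries, on 3 reads each. The groups did not overlap at either time point, and over both the log2 difference between siLarp1 and siCtl was −1.94 (SE 0.36, adjusted p = 0.00108, limma voom with Benjamini-Hochberg adjustment over the 5857 genes tested). Without siLarp1 library 24 of 48 h it was −1.81, at an adjusted p of 0.169, the highest of its alternatives, which went down to 4.55e-05. The pluripotency markers Pou5f1, Sox2, Nanog, Lin28a, Utf1 and Dnmt3b were all read, with a summed level of 3124 to 3929.6 RPM. Primitive endoderm and fibroblast markers summed to at most 6.37 and 14.5 RPM, with Sox17 at 0. The neuronal list, of which Tubb3 is also a tubulin client of TRiC, summed to 191 to 366 RPM, mostly Stmn2. In such bulk samples, fewer expressing cells and less RNA per cell cannot be told apart.

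The 8 genes lie on 8 chromosomes, so that none of them share a locus. On the mouse build GRCm38, with the GENCODE annotation, the transcript that held the most reads was ENSMUST00000022842.15 for Cct5 (chr15:31590800-31601804, minus strand, 11 exons), ENSMUST00000173867.7 for Cct4 (chr11:22990519-23003780, plus strand, 14 exons) and ENSMUST00000047672.8 for Cct2 (chr10:117051001-117063814, minus strand, 16 exons). For Tcp1, the alpha subunit, it was ENSMUST00000151287.7 (chr17:12916382-12925067, plus strand, 12 exons). These genes encode the subunits on the side of the ring that binds ATP tightly. On the other side, the transcripts were ENSMUST00000001452.13 for Cct3 (chr3:88297116-88321767, plus strand, 14 exons), ENSMUST00000201414.3 for Cct6a (chr5:129786998-129846371, plus strand, 13 exons), ENSMUST00000032078.8 for Cct7 (chr6:85451514-85468475, plus strand, 12 exons) and ENSMUST00000026704.13 for Cct8 (chr16:87483326-87495873, minus strand, 15 exons). Each is annotated as protein coding except that of Cct6a, a processed transcript without an annotated reading frame. The main transcript took 79.5% of the kept reads of Tcp1, 94.5% of those of Cct3 and nearly all of those of each other gene. Other isoforms of Tcp1 and Cct3 share much of their sequence, and 29.4% and 34.5% of their reads had a mapping quality under 10, against at most 0.654% in the other genes. Few reads could belong to another gene, since from 2 to 9 reads per TRiC gene also aligned elsewhere. The counts per gene used here include all its isoforms.

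Most TRiC mRNAs carried a pyrimidine run within the 30 bases before the position where their reads most often began. Nanopore reads of native RNA stop somewhat short of the cap, so the mRNA's first base may lie in the 30 bases before the most used read start. That start was position 58 of the main transcript in Cct5, 119 in Cct4, 42 in Cct2, 95 in Tcp1, 84 in Cct3, 417 in Cct6a, 549 in Cct7 and 48 in Cct8, and in the 7 coding transcripts the window is exonic and lies in the annotated 5′ UTR. The windows are shown because Larp1 binds pyrimidines at the 5′ end, on the RNA strand in DNA letters, with the longest unbroken run of C or T in capitals.
Cct5: ggtgcggtgtgTCTCTCTTCCCgagtggtc
Cct4: ccccttgctcggcttccgCCTTCTCTCCCg
Cct2: cgtgtcgtcacttccgCCTTTCTCTCTTTC
Tcp1: cccgcggcatcgctcgggCCTTTCCacgcc
Cct3: CTCTTCTCTCCagaaggttctgccgattcc
Cct6a: agaagaccccgcagagagcacgttgTTCTC
Cct7: caTTTCTCCggcgcggagcattgtgggctt
Cct8: gtgcgcggcgccccttgCTTCCTCggcgtc

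The longest runs were 14 pyrimidines in Cct2, and 11 in Cct4, Cct5 and Cct3. Tcp1, Cct7 and Cct8 had runs of 7, and Cct6a had 1 of 5. A run of at least 6 was thus present in 7 of 8 TRiC genes, against 31.8% of the 1640 genes with at least 100 reads on their main transcript and a full window, and a run of at least 8 in 4 of 8 against 15.6%. Of the 64 ribosomal protein genes with such a window, 98.4% had a run of at least 6, and the median longest run was 12 there, 9 in the TRiC genes and 5 in all genes. The share of pyrimidines in the window was highest in Cct2 and Cct4, at 83.3% each, and lowest in Cct6a, at 46.7%. In Cct2 and Cct4 the run reached to the last bases of the window, where the reads began. In Cct3 it was the beginning of the window, and in Cct7 it was close to the beginning. The windows depend on the annotated transcript, and a run in them is a description of the letters, not a mapped cap.

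The 8 mRNAs were of similar abundance. Over the 10 libraries the mean level was 793 ± 81.1 RPM (SD, n = 10) for Cct5, the epsilon subunit, and 563 ± 62.7 RPM (SD, n = 10) for Cct3, the gamma subunit, with the others between them in the order Cct4, Cct8, Tcp1, Cct6a, Cct2 and Cct7. All 8 ranked between place 173 and 252 of the 5857 genes with at least 30 reads. Neighbours in this order were not separated by the spread of the libraries: the mean difference within a library was from 5.01 to 60.8 RPM, with SDs of 55.8 to 126 RPM, and the higher gene of a pair was higher in 5 to 8 of 10 libraries. Cct5 was the highest member in 5 libraries and Cct3 the lowest in 7. Each molecule gives 1 read, and divided by the length of the main transcript (RPM per kb) the order was Cct5, Cct2, Cct4, Cct8, Cct3, Tcp1, Cct6a and Cct7, from 428 to 255 RPM per kb. Cct8, the theta subunit, varied least between libraries, from 622 to 750.1 RPM, and Cct4, the delta subunit, most, from 531 to 919.7 RPM.

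At 24 h the fitted level of each of the 8 TRiC mRNAs was below that of siCtl in the siLarp1 libraries, but none passed the test. Tcp1, which encodes the alpha subunit, had 769.9, 822 and 749 RPM in the siCtl libraries 19, 21 and 22 and 526, 636 and 560.5 RPM in the siLarp1 libraries, without overlap. Its log2 difference was −0.43 (SE 0.12, adjusted p = 0.364), the lowest of the 8, with an unadjusted p of 0.000808. It kept its sign in all 20 alternative settings in which it was computed, with adjusted p from 0.0350 to 0.859 (limma). The lowest came with a block of library numbers, which the labels do not pair. At 48 h the order was turned, with 541 and 683 RPM in siCtl and 741 and 838 RPM in siLarp1 libraries, again without overlap, and a log2 difference of 0.33 (SE 0.17, adjusted p = 0.945). The difference between the time points was 0.77 (SE 0.21, adjusted p = 0.972) on the log2 scale (unadjusted p 0.000478). With that block it was 0.79, at an adjusted p of 0.0373 (limma). Apart from the values of the alternatives, these log2 differences, and those of the other members, come from the same limma voom fit as that of Larp1.

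Cct2, the beta subunit, was the only member whose siLarp1 libraries lay below all siCtl libraries at both time points. How many of all genes did so at both was not counted. It had 708, 799 and 666 RPM in siCtl and 517, 666 and 624 RPM in siLarp1 libraries at 24 h, and 683 and 689 against 636 and 514 RPM at 48 h. The 24 h groups almost touched, and the log2 difference over both time points was −0.25 (SE 0.11, adjusted p = 0.767). Cct7, the eta subunit, had 677, 706 and 631 RPM in siCtl and 517, 636 and 529 RPM in siLarp1 libraries at 24 h, which overlapped through siLarp1 library 21, and 621 and 649 against 636 and 614 RPM at 48 h. Its log2 differences were −0.25 (SE 0.13, adjusted p = 0.846) and −0.026 (SE 0.17, adjusted p = 0.995).

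Cct8 was close to level at 24 h, with 722, 703 and 702 RPM in siCtl and 668, 703 and 688 RPM in siLarp1 libraries, and lower without overlap at 48 h, with 692 and 750.1 against 667 and 622 RPM. Cct6a, the zeta subunit, had 749, 639 and 697 RPM in siCtl and 668, 509 and 713 RPM in siLarp1 libraries at 24 h, and was higher without overlap at 48 h, with 604 and 610.1 against 796 and 664 RPM. The siLarp1 libraries of these genes thus lay on opposite sides of siCtl at 48 h. Cct5 had 870.1, 950.2 and 718 against 826, 808 and 688 RPM at 24 h and 799 and 711 against 821 and 738 RPM at 48 h. Cct4 had 769.9, 880.4 and 747 against 793, 793 and 605 RPM at 24 h and 675 and 812 against 919.7 and 531 RPM at 48 h, and Cct3 628, 584 and 602 against 517, 516 and 643 RPM and 453 and 559.8 against 617 and 506 RPM. In these last genes the groups overlapped at both time points. The log2 differences over both time points of the 6 members other than Cct2 and Cct7 ranged from −0.10 to 0.067, with adjusted p from 0.925 to 0.985.

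**Figure D1:**
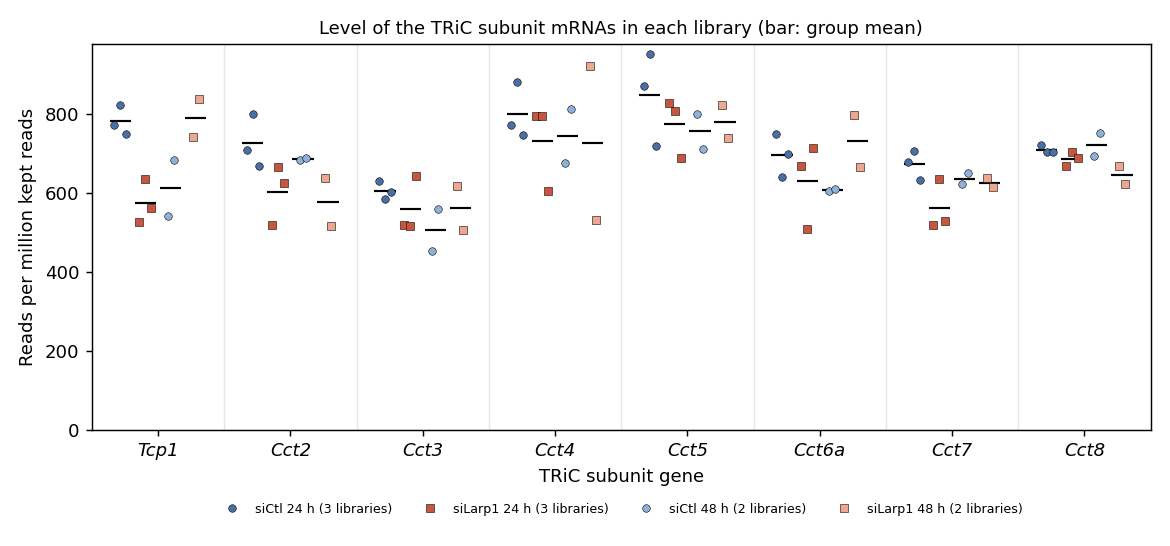
Level of each TRiC mRNA in RPM (y axis, from 0) in each of the 10 libraries, with circles for siCtl, squares for siLarp1, dark for 24 h, light for 48 h, and a bar at each group mean. Tcp1 separates in opposite directions at 24 h and 48 h. Cct2 is lower in siLarp1 at both, with groups that almost touch at 24 h, and in most other cases the groups overlap.

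Of 8 members 0 passed an adjusted p of 0.05 at 24 h, 0 at 48 h and 0 over both (limma voom), where 0%, 0.0341% and 0.154% of all 5857 genes tested passed. At an unadjusted p under 0.05 there was 1 member at 24 h (Tcp1), 0 at 48 h and 1 over both (Cct2), against 5.84%, 4.93% and 6.18% of all genes. Fitted values were below 0 for 8 members at 24 h against 47.5% of all genes, with a median log2 difference of −0.14 against 0.023. At 48 h they were below 0 for 4 members against 45.7% of all genes, with a median of 0.022 against 0.050. Over both time points they were below 0 for 6 members against 45.3%, with a median of −0.076 against 0.037. Without overlap, 2 members were lower at 24 h (Tcp1, Cct2; 6.06% of all genes) and 2 at 48 h (Cct2, Cct8; 15.0%), and 2 were higher at 48 h (Tcp1, Cct6a; 18.2%). Together the 8 mRNAs made up 0.589, 0.608 and 0.551% of the kept reads in the siCtl libraries at 24 h and 0.503, 0.526 and 0.505% in the siLarp1 libraries. At 48 h these shares were 0.507 and 0.546% in siCtl and 0.583 and 0.503% in siLarp1 libraries, which overlapped, and siCtl library 24 lay within the range of the siLarp1 libraries at 24 h. With 95% intervals (1.96 SE), the log2 differences over both time points left room for a fall of at most 0.46 in Cct2 and a rise of at most 0.28 in Cct6a.

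Within these 10 libraries the levels of most pairs of members were weakly correlated, and pairs of other genes were not computed for comparison. Across the 28 pairs of members the Pearson correlation of log2 RPM over the 10 libraries had a median of 0.275 and ranged from −0.234 (Cct6a with Cct8) to 0.751 (Cct2 with Cct8), with 22 of 28 above 0. The libraries differ in depth and share pools, and each level carries its counting error. The genes whose levels were most like the mean standardised TRiC level, out of 1395 other genes with at least 200 reads, were 5 picked as the highest values, with no test. They were Mrpl15 (r = 0.862), a mitochondrial ribosomal protein, Psmd7 (r = 0.795), a proteasome subunit, Lyar (r = 0.790), a nucleolar protein, Npm1 (r = 0.782), a nucleolar chaperone of ribosome assembly, and Kars (r = 0.770), the lysyl-tRNA synthetase, each over 10 libraries.

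The poly(A) tails of TRiC mRNAs were near the middle of the transcriptome. The mean of the library medians was 113 nt for Cct8, longer than in 76.0% of the 2536 genes tested, and 95.9 nt for Cct4, longer than in 22.2%. Cct6a, Cct7, Cct3 and Tcp1 lay between 103 and 104 nt, and Cct2 and Cct5 at 97.0 and 96.4 nt, where the median over all genes was 104 nt. Single molecules varied far more than the genes: the quartiles of Cct8 reads were at 74.2 and 152 nt, and those of Cct4 reads at 58.5 and 142 nt. Cct8 had the longest median of the 8 in 4 of 10 libraries and the shortest in none, and Cct2 and Cct4 each had the shortest in 4. Tails over 200 nt were from 5.31% (Cct5) to 8.14% (Cct8) of the reads.

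No TRiC mRNA changed its median tail past the test. Cct7 had the lowest unadjusted p of the 8 at 48 h. Its medians were 104, 98.4 and 103 nt in siCtl and 104, 94.4 and 105 nt in siLarp1 libraries at 24 h, and 90.7 and 101 against 112 and 126 nt at 48 h. The 48 h groups did not overlap, and the fitted difference was 20.8 nt (SE 6.87, adjusted p = 0.735), with an unadjusted p of 0.00609, in limma over the 2536 genes tested. Cct2 likewise had 88.2 and 82.3 nt in siCtl and 88.7 and 117 nt in siLarp1 libraries at 48 h, a narrow separation, and a fitted difference of 14.6 nt (SE 7.87, adjusted p = 0.858). Cct4 went the other way, with 106 and 96.4 against 84.0 and 96.3 nt, with almost touching groups, and −11.8 nt (SE 7.20, adjusted p = 0.892). The 24 h groups overlapped for all 8 genes. The fitted differences at 24 h ran from −5.12 nt (Tcp1) to 7.83 nt (Cct6a).

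At 48 h, libraries of the same group differed from each other. Pooled over the 8 genes, the median tail was 103 and 90.7 nt in the siCtl libraries 24 and 25 at 48 h, and 92.4 and 107 nt in the siLarp1 libraries 24 and 25, so that the shorter tails were found in 1 library of each treatment. At 24 h the 6 pooled medians lay within 102 to 104 nt. Of all kept reads the medians at 48 h were 97.1 and 98.6 nt in siCtl and 97.7 and 103 nt in siLarp1 libraries. At 24 h 0 members were called, at 48 h 0 and over both 0, as were 0% of all genes in each (limma), and at an unadjusted p under 0.05 there were 0, 1 and 1 members (Cct7), against 5.56%, 5.95% and 5.84% of all genes. Without overlap at 48 h, 2 members had longer medians (Cct2, Cct7; 20.9% of all genes) and 1 had shorter ones (Cct4; 13.0%). Over both time points the fitted differences were above 0 for 4 members and below 0 for 4, with a median of 0.133 nt against 2.19 nt for all genes.

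**Figure D2:**
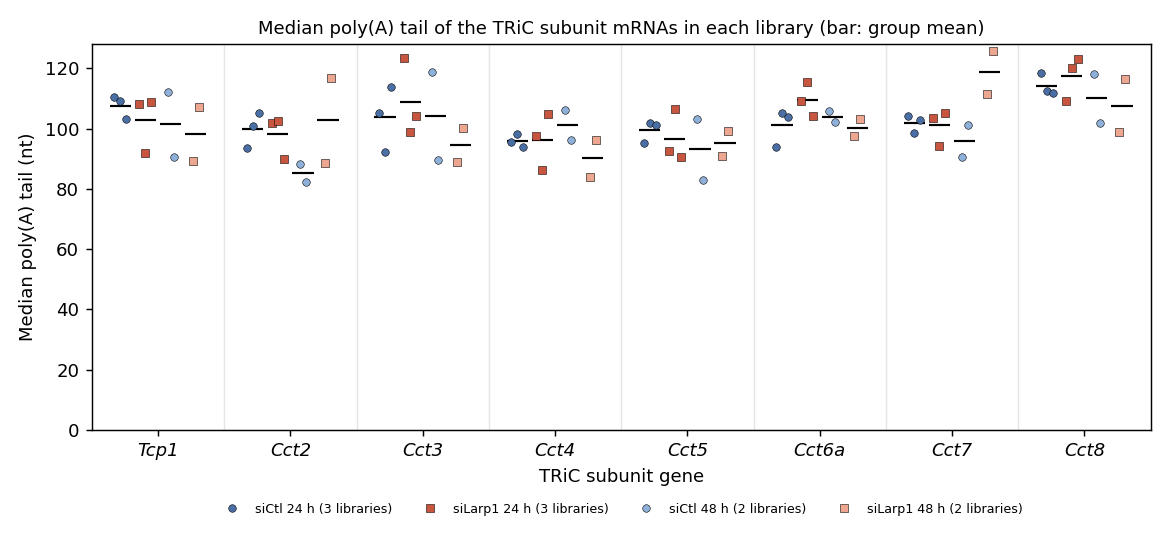
Median poly(A) tail in nt (y axis, from 0) of each TRiC mRNA in each library, with symbols as in the plot of levels and a bar at each group mean. The medians lie between 82.3 and 126 nt. The groups do not overlap in the 48 h libraries of Cct7, Cct2 and Cct4 only, and in Cct2 and Cct4 they almost touch.

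Tails shorter than 30 nt are 1 of the tail classes the study examined, and the share of such reads was a few percent in TRiC mRNAs. Over all libraries it was from 2.32% in Cct6a to 5.53% in Cct4, where the median of the 842 genes with at least 100 reads at each time point was 2.56%. Cct4 and Cct2 had the highest shares of the 8, higher than 92.3% and 87.1% of these genes.

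Cct2 had the lowest unadjusted p of the 8 at 48 h (0.00200). At 48 h, 3 of 77 and 1 of 123 reads had tails under 30 nt in the siCtl libraries (3.90% and 0.813%; exact 95% binomial intervals 0.811 to 10.97% and 0.0206 to 4.45%), against 11 of 103 and 6 of 62 in the siLarp1 libraries (10.7% and 9.68%; 5.45 to 18.3% and 3.63 to 19.9%). The siLarp1 libraries were near to each other and above both siCtl libraries. At 24 h the shares were 3.41%, 4.36% and 6.03% in siCtl and 1.61%, 2.25% and 5.10% in siLarp1 libraries, which overlapped and were on average lower in siLarp1. The log2 odds ratio was 2.49 (SE 0.72, adjusted p = 0.0857) at 48 h and −0.58 (SE 0.55, adjusted p = 0.783) at 24 h, from a quasi-binomial model adjusted over 841 genes. Their difference was 3.07 (SE 0.90, adjusted p = 0.685), with an unadjusted p of 0.00245. With reads of every quality tag the Cct2 shares at 48 h lay closer together, at 8.33% and 5.37% in siCtl and 12.8% and 12.3% in siLarp1 libraries, and the log2 odds ratio at 48 h was 1.05 (SE 0.51, adjusted p = 0.365). Without siCtl library 25 of 48 h it was 1.5, at an adjusted p of 0.621, and without siCtl library 24 it was 3.81, at 0.125. Over all alternatives this p ran from 0.0564 to 0.621.

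Tcp1 had 4 of 223, 6 of 283 and 3 of 317 short-tailed reads in the siCtl libraries at 24 h (1.79%, 2.12% and 0.946%) and 2 of 63, 7 of 85 and 2 of 88 in the siLarp1 libraries (3.17%, 8.24% and 2.27%), without overlap. The siLarp1 library 21 stood highest, and the other siLarp1 libraries were just above siCtl. At 48 h it had 0 of 61 and 5 of 122 in siCtl (0% and 4.10%) and 10 of 120 and 2 of 101 in siLarp1 libraries (8.33% and 1.98%), which overlapped. The count of 0 of 61 reads allows a share of up to 4.92% as a limit of 3 counts, and of up to 5.87% by the exact 95% binomial interval. The log2 odds ratio over both time points was 1.40 (SE 0.55, adjusted p = 0.136), the largest of the 8 members. With reads of every quality tag the counts were 5 of 265, 6 of 342 and 5 of 371 in siCtl and 7 of 90, 8 of 101 and 3 of 113 in siLarp1 libraries at 24 h, and 4 of 84 and 9 of 145 against 17 of 141 and 10 of 125 at 48 h, and with these the log2 odds ratio of 1.43 (SE 0.39) over both time points passed the test, at an adjusted p of 0.00564. Over all alternatives this p ran from 0.00564 to 0.705. Most of the added TRiC reads with a tail under 30 nt carried the tag NOREGION, which marks reads in which no tail was found (171 of the 176 reads with this tag were under 30 nt).

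Cct3 and Cct4 were also higher without overlap at 48 h. The shares of Cct3 were 1.96% and 2.00% in siCtl and 8% and 4.92% in siLarp1 libraries at 48 h, and 0.549%, 2.99% and 1.96% against 0%, 4.35% and 0.990% at 24 h. Those of Cct4 were 3.95% and 4.14% against 8.72% and 6.25% at 48 h and 6.73%, 5.61% and 3.16% against 6.32%, 8.49% and 4.21% at 24 h. The share of 0% is that of 62 reads in siLarp1 library 19, which allows up to 4.84% as a limit of 3 counts and up to 5.78% by the exact 95% binomial interval. The log2 odds ratios at 48 h were 1.86 (SE 0.90, adjusted p = 0.360) for Cct3 and 1.03 (SE 0.59, adjusted p = 0.455) for Cct4. Cct7 was higher on average at 24 h, with 3.57%, 0.823% and 2.62% in siCtl and 6.45%, 8.24% and 2.41% in siLarp1 libraries, which overlapped, and a log2 odds ratio of 1.37 (SE 0.58, adjusted p = 0.240). At 48 h the shares of Cct7 were 2.86% and 3.45% against 1.94% and 4.05%, with overlap, and the log2 odds ratio was −0.20 (SE 0.91, adjusted p = 0.992). Cct5, Cct6a and Cct8 had log2 odds ratios over both time points of 0.29, 0.056 and 0.33, with SEs of 0.43 to 0.57. Their groups overlapped at both time points.

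As a set, all 8 members had a log2 odds ratio above 0 over both time points, with a median of 0.55 against 0.41 for the 841 genes tested, 70.3% of which were above 0. Of the 8 members, 0 were called at 24 h, 0 at 48 h and 0 over both (quasi-binomial model), where 3.33%, 1.55% and 6.78% of all genes were called, 45 of the 57 over both being ribosomal protein genes. At an unadjusted p under 0.05 there were 2 members at 24 h (Cct7, Tcp1), 1 at 48 h (Cct2) and 1 over both (Tcp1), where 15.3%, 13.8% and 17.6% of all genes had such a p. Without overlap, 1 member was higher at 24 h (Tcp1; 11.9% of all genes) and 3 at 48 h (Cct2, Cct3, Cct4; 27.1%). The pooled share over the 8 genes was 2.69%, 3.25% and 2.49% in siCtl and 3.32%, 5.40% and 2.52% in siLarp1 libraries at 24 h. At 48 h it was 2.63% and 3.28% in siCtl and 6.56% and 3.80% in siLarp1 libraries. The groups overlapped at 24 h and not at 48 h. Among all kept reads of the libraries, the share was 2.96% and 2.82% in siCtl and 4.204% and 3.37% in siLarp1 libraries at 48 h, and it did not overlap at 24 h either.

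**Figure D3:**
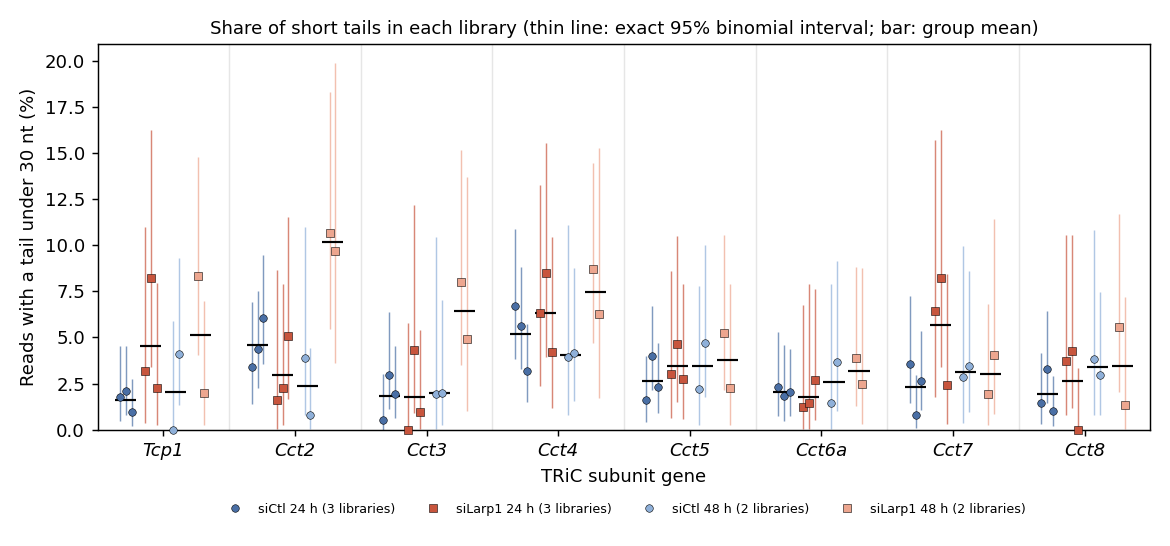
Share of reads with a poly(A) tail under 30 nt (y axis, percent) for each TRiC mRNA in each library, with the exact 95% binomial interval of each library as a thin line and a bar at each group mean. Cct2 at 48 h has 9.68% and 10.7% in siLarp1 against 3.90% and 0.813% in siCtl libraries, and the intervals of single libraries are wide throughout.

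Tails of 30 to 90 nt, the next class, held from 33.5% (Cct8) to 42.2% (Cct5) of the reads, around the median of 38.8% for all genes. Cct2 and Cct7 were lower in siLarp1 without overlap at 48 h. Cct2 had 48.1% and 57.7% in siCtl and 39.8% and 29.0% in siLarp1 libraries, and Cct7 had 47.1% and 43.1% and 34.0% and 21.6%. At 24 h the groups of both genes overlapped, with 43.9%, 37.5% and 36.2% against 37.1%, 38.2% and 44.9% for Cct2 and 39.3%, 42.0% and 37.8% against 32.3%, 40% and 34.9% for Cct7. The log2 odds ratios at 48 h were −1.08 (SE 0.33, adjusted p = 0.329) for Cct2 and −0.99 (SE 0.34, adjusted p = 0.355) for Cct7. The remaining 6 members had log2 odds ratios over both time points from −0.34 (Cct3) to 0.0047 (Cct8). Of the 8 members 0 were called at 24 h, at 48 h or over both (quasi-binomial model), against 0.713%, 0% and 1.31% of the 842 genes, and 0, 2 (Cct2, Cct7) and 1 (Cct7) had an unadjusted p under 0.05, against 8.19%, 8.67% and 10.9% of these genes. Lower values without overlap at 48 h were found for 2 members and 28.6% of all genes.

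**Figure D4:**
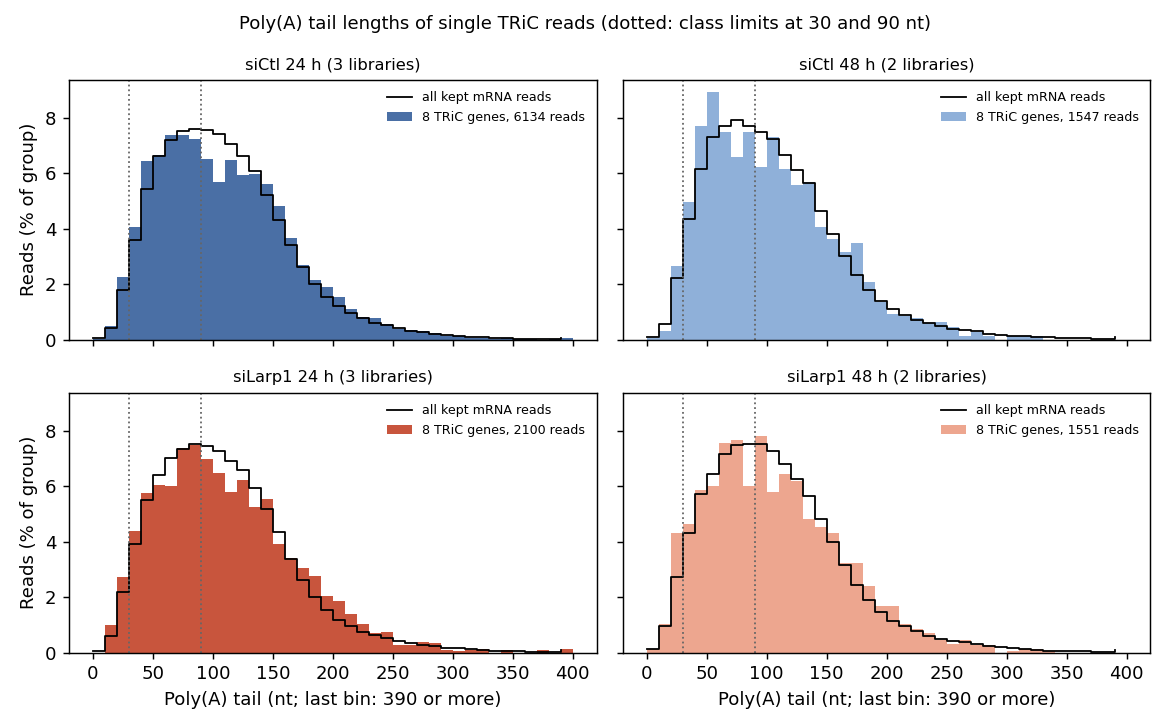
Poly(A) tail lengths of single reads of the 8 TRiC genes in bins of 10 nt (bars, percent of the reads of a group) beside all kept mRNA reads (line), for siCtl (upper) and siLarp1 (lower) at 24 h (left) and 48 h (right), with dotted lines at 30 and 90 nt. The bars follow the shape of the line, on 6134 and 2100 TRiC reads of siCtl and siLarp1 at 24 h and 1547 and 1551 at 48 h, with departures in single bins, such as those in siCtl at 24 h from 100 nt (5.67% against 7.41%), in siCtl at 48 h from 50 nt (8.92% against 7.29%) and in siLarp1 at 48 h from 20 nt (4.32% against 2.73%).

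How much of a molecule was read differed between the members and between the time points. A read was counted as reaching the start cluster if it began no later than 20 nt after the most used start of its transcript. This was so for 67.0% of Tcp1 reads and 61.3% of Cct8 reads, and for 40.5% of Cct5 reads, the lowest share. In the 7 genes with an annotated reading frame the most used start lay 37 (Cct3) to 117 nt (Cct4) before the start codon, and from 59.5% to 71.3% of the reads covered the whole coding region. The share of TRiC reads reaching the start cluster was 56.5%, 58.0% and 57.3% in siCtl and 56.8%, 55.4% and 55.2% in siLarp1 libraries at 24 h. At 48 h it was 50.0% and 39.7% in siCtl and 41.6% and 45.7% in siLarp1 libraries, below each 24 h library and with the groups overlapping. At 48 h, 2 members had a higher share in siLarp1 without overlap (Tcp1, Cct2; 13.5% of the 2178 genes with at least 100 reads on their main transcript) and 2 a lower one (Cct4, Cct5; 13.3%). In Tcp1 the share was 44.9% and 50.0% in siCtl and 64.6% and 64.0% in siLarp1 libraries, in the same direction as its level. In Cct2 it was 44.2% and 37.7% against 44.7% and 51.6%, with almost touching groups. The level of Cct2 was lower in siLarp1. In Cct4 the share was 53.9% and 40% against 34.9% and 39.1%, and in Cct5 31.1% and 32.3% against 27.1% and 30.3%. These groups also almost touched, and the levels of both genes overlapped. At 24 h only Cct2 did not overlap, with a lower share in siLarp1 (7.3% of all genes). Among all genes with at least 100 reads the share was lower in the same libraries, at 74.95% to 77.2% at 24 h and at 66.6% to 73.2% at 48 h. Its part in the levels and tails at 48 h was not tested.

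Molecules read to the start cluster had longer tails in each of the 8 genes. The difference of the medians, over all libraries, was from 2.16 nt in Cct6a to 14.0 nt in Cct3, with a median of 7.22 nt, whereas 62.2% of the 1979 genes with at least 20 reads of each kind had a difference above 0, with a median of 2.82 nt. Pooled over the members, the difference was above 0 in 9 of 10 libraries, at 12.9, 6.86 and 5.20 nt in siCtl and −5.98, 13.3 and 13.5 nt in siLarp1 libraries at 24 h. At 48 h it was 4.27 and 6.40 nt in siCtl and 14.0 and 10.4 nt in siLarp1 libraries. The siLarp1 library 19 was the exception. This comparison is a description, made after the values were seen.

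**Figure D5:**
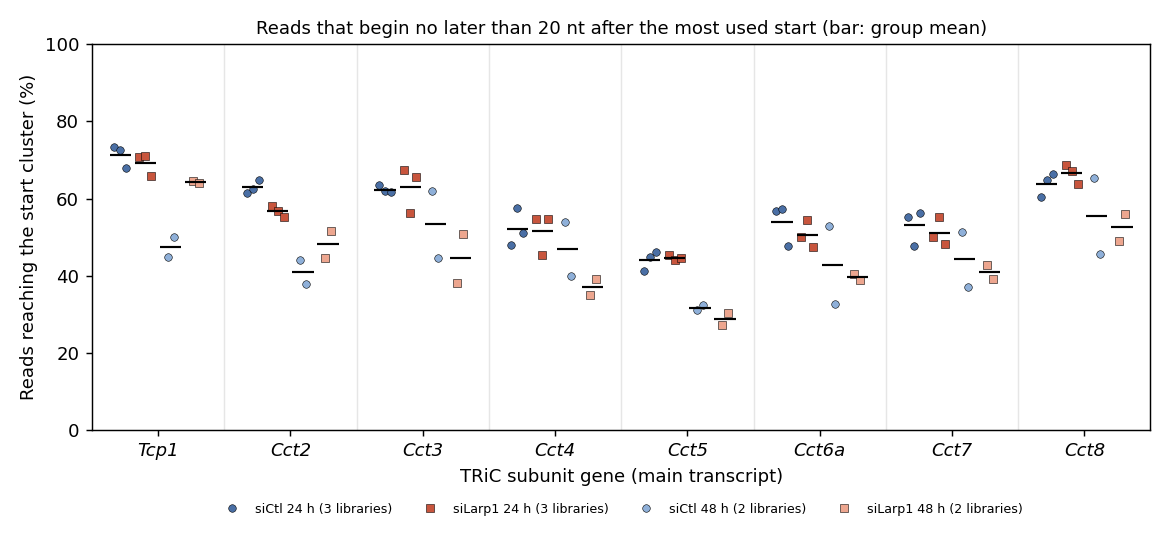
Share of the reads of each TRiC main transcript that begin no later than 20 nt after the most used start (y axis, 0 to 100%) in each library, with symbols as in the plot of levels and a bar at each group mean. Most 48 h libraries lie below the 24 h libraries, and at 48 h siLarp1 lies above siCtl in Tcp1 (64.6% and 64.0% against 44.9% and 50.0%). It also lies above siCtl in Cct2 and below it in Cct4 and Cct5, with almost touching groups.

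At the other end, Cct2, Cct3, Cct4, Cct7 and Cct8 used a single 3′ end, and Tcp1 and Cct5 had further ends with over 5% of their reads. The last 30 bases before the most used end are shown, with the polyadenylation signal (AATAAA or ATTAAA) in capitals, since this is where the tails measured here begin.
Cct5: actgtgactaAATAAAgggtgtgtctgttg
Cct4: aaaacATTAAAtacttggttttaaactcca
Cct2: tgtgtattaaAATAAAaatccagttactta
Tcp1: ggtgtctcacATTAAAgtacagcaagctga
Cct3: gcttccaatgATTAAAtctaagtcatttga
Cct7: ctgaggttatttaAATAAAgcttaaggtta
Cct8: ctgggtggtacAATAAAtgtgttactgtta

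AATAAA was found in 4 of these 7 windows, in Cct2 overlapping the other hexamer, and ATTAAA alone in 3 (Cct4, Tcp1 and Cct3), starting 17 to 25 nt before the end. Of the 2178 genes with at least 100 reads on their main transcript, 68.3% had the former hexamer in this window, 16.8% the latter and 82.7% either. The share of reads that ended within 20 nt of the most used end was from 93.0% to 98.6% in Cct2, Cct3, Cct4, Cct7 and Cct8. In Cct5 it was 72.5%, and 20.9% ended at a further site, also with the former hexamer, 115 rather than 45 nt after the stop codon. In Tcp1 it was 79.8%, 81 nt after the stop codon, while 6.28% and 10.1% ended 492 and 591 nt after it, both with the former hexamer. These minor ends read as follows.
Cct5, further end: gatgctggAATAAAagcagctgtctggtaa
Tcp1, middle end: aaccttaggAATAAAtaggcctatgtgaca
Tcp1, last end: tcagaAATAAAtctgcctgcctttgcctct

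The median tail of Tcp1 was longest at its most used end, a description with no test. It was 109.6 nt at its most used end on 928 reads, 98.1 nt at the middle end on 73 reads and 93.5 nt at the last end on 117 reads. In Cct5 they were 96.0 nt at the main and 99.8 nt at the further end. The last end of Tcp1 took 9.09%, 5.56% and 9.88% of the reads in siCtl and 14.6%, 13.0% and 13.7% in siLarp1 libraries at 24 h, which did not overlap, and 18.4% and 12.2% against 11.5% and 8% at 48 h, where the order was turned. These shares rest on 6 to 25 reads at that end per library and were not tested. How many ends of all genes separate without overlap was not counted. Of levels, which are a different measure, 5.05% of all genes were higher in siLarp1 without overlap at 24 h and 15.0% lower at 48 h. These shares do not tell how often the use of an end separates on so few reads. The main end of Cct5 took 65.5%, 69.1% and 72.0% in siCtl and 71.7%, 72.9% and 76.9% in siLarp1 libraries at 24 h, and 75.6% and 79.5% against 77.4% and 80.9% at 48 h, with overlap at each time point.

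The genes that work with TRiC were followed in 6 lists with 39 entries, chosen by known function with earlier results of these data known. For their level 32 were tested, and 0 were called at 24 h, at 48 h or over both time points (limma voom). Of these 32, 3, 3 and 2 had an unadjusted p under 0.05, where 5.84%, 4.93% and 6.18% of all genes did. Counts this small do not separate the lists from all genes. All 6 genes of prefoldin, which hands unfolded actin and tubulin to TRiC, were tested for their level, 3 with a log2 difference above 0 and 3 below 0 over both time points. Pfdn1, with the most reads, had 0.10 (SE 0.16, adjusted p = 0.956). Of the phosducin-like and thioredoxin-like co-chaperones 3 of 4 were tested, and the most read, Txndc9, had 0.12 (SE 0.22, adjusted p = 0.957). Of the clients, all 13 actin and tubulin genes were tested, 6 above and 7 below 0, with Tuba1b, an alpha-tubulin gene, at −0.038 (SE 0.055, adjusted p = 0.945). Of the 9 WD-repeat and other clients 7 were tested, 3 above and 4 below 0, with Cdc20, an activator of the anaphase-promoting complex, at −0.011 (SE 0.18, adjusted p = 0.990). Hspd1 and Hspe1, the mitochondrial chaperonin and its lid, lay on opposite sides of 0, and Hspe1 had −0.070 (SE 0.080, adjusted p = 0.925). Of the genes related to TRiC subunits in sequence, Cct6b and Cct8l1 had 0 reads, and only Mkks had enough for a test, with 0.067 (SE 0.38, adjusted p = 0.985). For the median tail 27 of these genes were tested and 0 called, with 1, 2 and 2 at an unadjusted p under 0.05 (5.56%, 5.95% and 5.84% of all genes). For each of the tail classes 14 were tested and 0 called. At an unadjusted p under 0.05 there were 0, 2 and 2 for tails under 30 nt (15.3%, 13.8% and 17.6% of all genes). For tails of 30 to 90 nt there were 0, 2 and 1 (8.19%, 8.67% and 10.9%).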

How the data were processed

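Poly(A)-selected RNA of P19 cells was sequenced directly on R9 nanopore flow cells by the authors, with barcoded biological replicates pooled. Base calling was done with Guppy, barcodes were called with Deeplexicon, and reads were aligned to mm10 GENCODE transcripts, repeats and RNA standards with Minimap2 (version 2.20 per the submitters' notes), after which Nanopolish estimated each tail in nt. The deposited table has 1 line per alignment with the tail length, the first and last aligned base, the mapping quality as a score and the barcode confidence as a fraction, none of them filtered by the authors. The match of libraries to labelled replicates was not given in the sources used here, so libraries are called by their number in the table.

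Alignments to mRNA with the tag PASS were kept, except those to genes of the mitochondrial genome and to pseudogenes. Each read was tallied once per gene, giving 112676 to 423247 reads per library. Levels (genes with at least 30 reads) were tested with limma 3.58.1 (R 4.3.3) voom on the tallies with library totals as sizes, and median tails (at least 30 reads at each time point and 3 in each library) with limma, weighted by reads up to 100. Shares of tails under 30 nt and of 30 to 90 nt (at least 100 reads at each time point) were tested with a quasi-binomial logistic model. All 10 libraries in 4 groups entered each fit, with contrasts at 24 h, at 48 h, over both and between them. Over both time points, the limma fits took the plain mean of the contrasts at 24 h and 48 h. The models of shares instead fitted a common siLarp1 effect beside time, in which libraries with more reads weigh more. The limit was a Benjamini-Hochberg adjusted p under 0.05, and intervals were of 1.96 SE. The fits were tested on simulated data, drawn as independent libraries with a set spread and no effect of sequencing pool. That test therefore cannot speak for differences between pools. Transcript structure and sequences came from GENCODE vM21 on GRCm38, and motifs were searched on the RNA strand only.

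The 8 members and all lists were chosen with earlier results of these data known. The named genes are the members, Larp1, the most read gene of each related list and the 5 genes most like the members' mean level. Whether the same library number pairs siCtl with siLarp1 libraries is not given by the labels. The correlations of the deviations of such pairs from group means in log2 RPM were 0.0285, 0.203 and 0.201 at 24 h and 0.0585 at 48 h. Pairs of unlike number ranged from −0.198 to 0.0084 at 24 h. A block required 0.1 in every pair, so none was used in the main fits. At 48 h, 2 libraries per group leave only 1 independent value, so this rule cannot show that pairing is absent. P-values measure the spread between these libraries. Alternatives covered scaling, filters, read quality, isoforms, class limits, the model, a block and leaving out each library. The 3′ end of Cct6a is not reported here.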

Additional observations from a re-analysis of the deposited data

Results flagged for a closer look

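Tcp1 had opposite differences at the time points with no overlap between siCtl and siLarp1 libraries at either. Of all 5857 genes, 6.06% were lower without overlap at 24 h and 18.2% higher at 48 h. The share with both was not counted. Its level was lower in siLarp1 at 24 h (log2 difference −0.43, 3 against 3 libraries) and higher at 48 h (0.33, 2 against 2). The difference between the time points was 0.77 on the log2 scale (SE 0.21), with an unadjusted p of 0.000478 and a limma adjusted p of 0.972 over 5857 genes. With a block of library numbers it was 0.79, at an adjusted p of 0.0373 (limma). The labels do not pair these numbers, and other alternatives ran to an adjusted p of 0.993. Time, sequencing pool and the second transfection cannot be told apart in this design.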

How the results depend on the processing

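The count of all genes called for level over both time points (9) became 35 with no filter on reads, 3 with a mapping quality of at least 10 and 28 with a replicate block, and 3 to 13 when 1 library was left out. That for tails under 30 nt (57) became 22 with a limit of 20 nt and 23 with limma on log2 odds, and 40 to 62 without 1 library. That for 30- to 90-nt tails (11) became 7 at a barcode confidence of at least 0.9 and 3 to 16 without 1 library. Each cause was not tested.

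Of the TRiC members, 0 were called in any contrast except 1 (Tcp1) in 2 settings. With the replicate block 1 was called for level at 24 h (−0.43, adjusted p = 0.0350, limma) and 1 in the difference between time points (0.79, adjusted p = 0.0373), where all alternatives together ran to an adjusted p of 0.859 and 0.993. Each siLarp1 library at 24 h correlated best with the siCtl library of its own number, a hint from the data and not from the design, and the block changed no other member's call. With all quality tags 1 was called for tails under 30 nt at 24 h (log2 odds ratio 1.92, adjusted p = 0.0187) and 1 over both (1.43, adjusted p = 0.00564), where the alternatives ran to 0.872 and 0.705. The cause was not tested. Leaving out any 1 library gave 0 members called in every contrast.

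Small values over both time points changed sign. For level, Tcp1 was 0.047 with a mapping quality of at least 10, and Cct3 −0.0043 with median-of-ratios size factors, −0.027 on the main transcript, −0.041 at a barcode confidence of at least 0.9 and −0.17 with the mapping quality limit. Cdc20 was 0.017 with all tags and 0.025 with reads aligned to a single gene, and Mkks −0.18 on the main transcript, −0.13 with all tags and −0.091 with the confidence limit. For the median tail, Cct3 was 0.640 nt with the geometric mean, 2.00 nt on the main transcript, 0.858 nt with the confidence limit and 3.41 nt with the mapping quality limit, and Cct5 1.44 nt with the geometric mean and 0.889 nt with all tags. For tails under 30 nt, Cct3 was −0.13 with the confidence limit, Cct5 −1.17 with the limit of 20 nt, Cct6a −0.55 with all tags and −0.32 with the confidence limit, and Cct8 −0.15 with all tags. For 30- to 90-nt tails Cct8 was −0.015 with limma on log2 odds and −0.0022 with the confidence limit.

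Without 1 library the level ranged from −0.12 to 0.046 for Tcp1, −0.059 to 0.11 for Cct3, −0.32 to 0.074 for Cct4, −0.089 to 0.027 for Cct5, −0.0050 to 0.14 for Cct6a, −0.0029 to 0.25 for Pfdn1, −0.16 to 0.34 for Txndc9, −0.12 to 0.13 for Cdc20, −0.17 to 0.0087 for Hspe1, −0.12 to 0.32 for Mkks and −2.08 to −1.76 for Larp1. The median tail ranged from −9.59 to 1.66 nt for Tcp1, −10.8 to 3.80 nt for Cct3, −5.57 to 4.44 nt for Cct5 and −4.07 to 5.59 nt for Cct8. Tails under 30 nt ranged from −0.12 to 0.20 for Cct6a, and 30- to 90-nt tails from −0.16 to 0.053 for Cct5 and −0.066 to 0.11 for Cct8. Of the alternative values of the TRiC members over both time points, 137 of 152 for level, 127 of 152 for the median tail, 119 of 128 for tails under 30 nt and 119 of 128 for 30- to 90-nt tails kept their sign and their side of the limit. Of 130 alternative level values of the other named genes 111 did so, 18 changed sign (8 of Mkks, 7 of Cdc20 and 1 each of Pfdn1, Txndc9 and Hspe1) and 1 of Larp1 was no longer past the limit. With 51 to 327 reads per member and library, depth limits each share to a few short-tailed reads.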
